A study of Mus musculus with 6 samples.

Results

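Aortic root cells of Marfan mice with a floxed Klf4 allele were compared with those of Marfan mice with the wild type allele, using the cells that lacked the smooth muscle lineage reporter. Barcodes were kept with at least 1000 UMIs (unique molecular identifiers, 1 per captured transcript), at least 500 detected genes and at most 10% mitochondrial UMIs, which left 6263 of 7088 barcodes in the library labelled floxed and 7105 of 7879 in the Marfan library. The comparison thus covers 13368 cells of 14967 barcodes, out of 41759 kept cells of 60200 barcodes in the 6 libraries of the series. Both groups were male mice aged 24 weeks that carried Fbn1 C1041G/+, a heterozygous fibrillin-1 allele that models Marfan syndrome. They differed by label in the Klf4 allele, which the series describes as an induced deletion in smooth muscle. The labels used here name neither the Cre driver nor the floxed exons. Each library held the pooled aortic roots of 4 animals, digested with Liberase and elastase and sorted on tdTomato, the red fluorescent lineage reporter. A lineage-negative library of littermate controls (4510 of 5167 barcodes kept) and the 3 lineage-positive libraries are used only as context, and every comparison with the control shares the Marfan library.

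Each group was a single library, so no test between conditions was possible. The intervals given are exact 95% intervals that cover counting error only, not the variation between animals, and "higher" and "lower" describe these libraries. A gene was called past the fold when its summed level, in CPM (counts scaled to the same library total), differed at least 1.5-fold and reached 5 CPM in either library. Across all lineage-negative cells 10574 genes reached 5 CPM, of which 168 (1.59%) were past the fold higher in the library labelled floxed and 383 (3.62%) lower, and the median log2 ratio of all measured genes was 0.02.

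The aortic root holds fibroblasts of the adventitia and valve, macrophages, endothelium and smooth muscle. Fibroblasts lay down collagen, elastic microfibrils and small proteoglycans such as decorin, and under inflammatory signals they secrete chemokines that attract blood monocytes and neutrophils. Recruited Ly6C-positive monocytes mature into macrophages beside a resident population that carries Lyve1 and Folr2, while Klf4, a zinc finger transcription factor, is known for its part in smooth muscle phenotype change, in monocyte differentiation and in endothelial quiescence.

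Depth was alike in both libraries, with a median of 10225 UMIs and 3082 genes per cell in Marfan and 10374 UMIs and 3137 genes in the library labelled floxed, and 79583816 and 69146882 UMIs in all. The median mitochondrial share was 2.21% and 2.49%. They shared 10 cell barcodes. Of the 27 clusters found over the 3 lineage-negative libraries, 24 were named from marker genes, and a smooth muscle cluster with Myh11, Acta2 and Cnn1 made up 2.29% of Marfan and 2.32% of labelled floxed cells despite the reporter-negative sort. The reporter transcript itself was at 4.98 CPM in Marfan and 2.75 CPM in the library labelled floxed, against 413 and 225 CPM in the matching lineage-positive libraries.

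Klf4 was not lower in the library labelled floxed. Over all lineage-negative cells control Klf4 was 277 CPM, against 267 CPM in Marfan and 358 CPM in the library labelled floxed, a log2 ratio over Marfan of 0.42 (0.39 to 0.44). The same direction was seen in fibroblasts (263 to 366 CPM), in macrophages and monocytes (307 to 410 CPM) and in endothelial cells (451 to 532 CPM). In the lineage-positive libraries, where the design places the recombination, Klf4 was 29.7 CPM in the control, 45.4 CPM in Marfan and 119 CPM in the library labelled floxed. A 3′ tag can lie outside the deleted part of a gene, and the floxed exons are not known here, so these counts check neither the label nor the deletion. Over the whole lineage-negative libraries none of the 12 measured Krüppel-like factors was past the fold, and Fbn1, the gene of the shared Marfan allele, was 206 CPM in Marfan and 215 CPM in the library labelled floxed.

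The immune marker Tyrobp, an adaptor of activating receptors on myeloid cells, was found in fewer cells of the library labelled floxed. A Tyrobp UMI was present in 16.9% (15.8 to 18.0) of control cells, 32.6% (31.5 to 33.7) of Marfan cells and 23.5% (22.4 to 24.5) of labelled floxed cells, that is 2318 of 7105 and 1469 of 6263 cells in the last pair. The intervals of the 3 libraries did not overlap, and the library labelled floxed lay between the others. With every cell thinned to 2000 UMIs, and the shallower 291 Marfan and 175 labelled floxed cells left out, the shares were 10.9%, 23.8% and 16.6%. At least 5 Tyrobp UMIs were counted in 20.9% of Marfan and 14.1% of labelled floxed cells. Fibroblasts, which should lack Tyrobp, had a UMI of it in 12.6% of Marfan and 9.40% of labelled floxed cells at medians of 10764 and 10977 UMIs, so part of the unthinned share is background; thinned, it was 2.82% and 1.78%.

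Dcn, which encodes the proteoglycan decorin, was near saturation as a share and is better read as a level. A Dcn UMI was present in 98.5% of control, 93.2% (92.6 to 93.8) of Marfan and 96.9% (96.4 to 97.3) of labelled floxed cells, and in 92.4%, 80.9% and 87.7% after thinning. Even macrophages, which should lack it, held a Dcn UMI in 79.3% of Marfan and 85.5% of labelled floxed cells (33.5% and 45.3% thinned, at medians of 9606 and 8857.5 UMIs before thinning). At least 5 Dcn UMIs were found in 71.7% of Marfan and 80.6% of labelled floxed cells. The share for Pecam1, the endothelial adhesion molecule CD31, hardly moved, at 12.7% (11.7 to 13.7), 12.6% (11.9 to 13.4) and 11.9% (11.1 to 12.7), and at 5.52%, 6.44% and 6.01% after thinning, with intervals that overlapped. In fibroblasts a Pecam1 UMI was counted in 8.74% of Marfan and 7.30% of labelled floxed cells, against 12.6% and 11.9% over all cells.

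**Figure D1:**
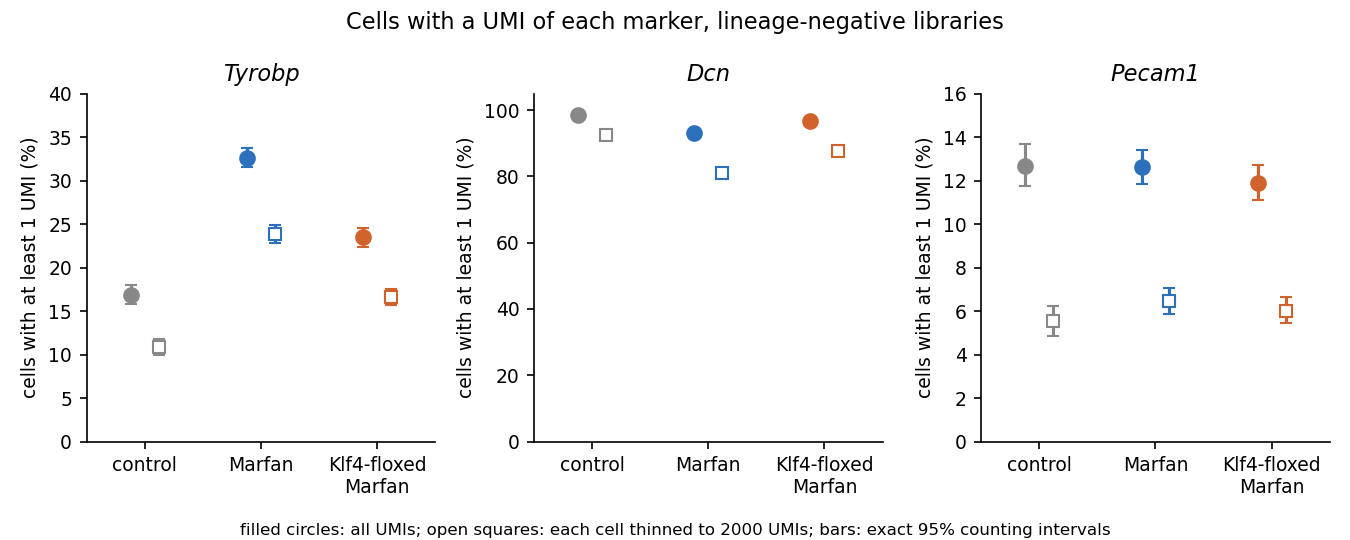
Percentage of cells (vertical axes, each from 0) with at least 1 UMI of Tyrobp, Dcn or Pecam1 in the control, Marfan and labelled Klf4-floxed lineage-negative libraries; filled circles use all UMIs, open squares cells thinned to 2000 UMIs, and bars are exact 95% counting intervals. Tyrobp reads 16.9%, 32.6% and 23.5% before thinning, Dcn runs the opposite way and the Pecam1 intervals of Marfan and labelled floxed overlap.

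Combinations of the 3 markers in thinned cells gave the same order. Cells with Dcn alone made up 67.1% of Marfan and 75.4% of labelled floxed cells, and cells with Tyrobp alone 13.6% and 8.34%. Both Dcn and Tyrobp were found in 9.69% and 8.02%, and Pecam1 alone in 2.03% and 1.71%.

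The summed levels followed the shares for Tyrobp and Dcn. Tyrobp was 221 CPM in the control, 494 CPM in Marfan and 303 CPM in the library labelled floxed, a log2 ratio over Marfan of -0.70 (-0.73 to -0.68). Within macrophages and monocytes it was 2334 and 2104 CPM (log2 -0.15), and with the mix of cell classes made equal the whole-library ratio was -0.16, both nearer to 0 than the ratio over all cells. Dcn was 15226, 10689 and 13713 CPM (log2 0.36 over Marfan), and in fibroblasts 14566 CPM in Marfan and 17381 CPM in the library labelled floxed. Pecam1 was 45.6, 61.3 and 64.9 CPM (log2 0.08, 0.02 to 0.14), and its sign turned to -0.02 without a fibroblast cluster found in Marfan only, described next, and to -0.005 with class mix made equal.

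Cell classes moved as the markers did. Fibroblasts made up 77.0% of control, 61.5% (60.4 to 62.7) of Marfan and 70.0% (68.8 to 71.1) of labelled floxed cells. Macrophages and monocytes were 9.56%, 19.7% (18.8 to 20.7) and 15.01% (14.1 to 15.9). Neutrophils were 7 control, 208 Marfan and 3 labelled floxed cells, which is 2.93% (2.55 to 3.35) of Marfan and 0.0479% (0.00988 to 0.14) of labelled floxed cells. Endothelium other than lymphatic, not divided into vessel and valve types, was 2.66%, 2.81% (2.44 to 3.23) and 3.35% (2.92 to 3.83). Lymphatic endothelium was 1.51%, 2.69% and 2.54%, and valve interstitial or cartilage-like cells 5.48%, 4.66% and 4.20%. The Marfan and labelled floxed intervals overlapped in all 3. All of these are shares of captured cells after a fluorescent sort and a UMI minimum, and the neutrophil cluster was shallow, at a median of 2481.5 UMIs.

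A fibroblast group was captured in Marfan alone. Cluster 26 held 219 Marfan cells, 0 control and 0 labelled floxed cells; a count of 0, taken as an upper limit of 3 cells, allows up to 0.0479% of the labelled floxed library. Its cells were deep, at a median of 23426 UMIs, and carried Il11, Cxcl5, Il6, Csf3, Ccl11, Lif, Saa3, Cxcl14, Timp1 and Hp as leading genes, which defined the cluster and are a description. With 1 library per group, such a cluster may belong to the library rather than to a type of cell. Many of the values below are given with and without it.

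Other clusters shifted within the named classes. The Ly6c2, Plac8 and Ccr2 monocyte cluster 13 held 38 control, 359 Marfan and 88 labelled floxed cells. Its leading genes also included Cd209a, a listed marker of dendritic cells, so it may not hold monocytes alone. Cluster 14, led by Cd72, the chemokines Ccl3, Ccl4 and Cxcl9, and Cd74, held 147, 679 and 473 cells. The resident-like macrophage cluster 9, with Folr2, Lyve1, Cd163 and F13a1, held 246, 363 and 379 cells. As a share of kept cells it was near level, at 5.45%, 5.11% and 6.05%.

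Among fibroblasts, cluster 7 (Clec3b, C7 and Apod) held 901 Marfan and 450 labelled floxed cells, and the Pi16 and Dpp4 cluster 8 was 153 against 76. Cluster 5 (Prss35, Areg, Vcan and Postn) had 227 Marfan and 588 labelled floxed cells, and the interferon-responsive cluster 4 (Ifit1, Ifit3 and Rsad2) 121 and 353. Cluster 0 (Igfbp3 and Lepr) was 227 and 365. The largest fibroblast clusters of the 2 libraries were therefore not the same, 7 in Marfan and 2 (655 cells) in the library labelled floxed, and levels averaged over fibroblasts carry that mix.

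**Figure D2:**
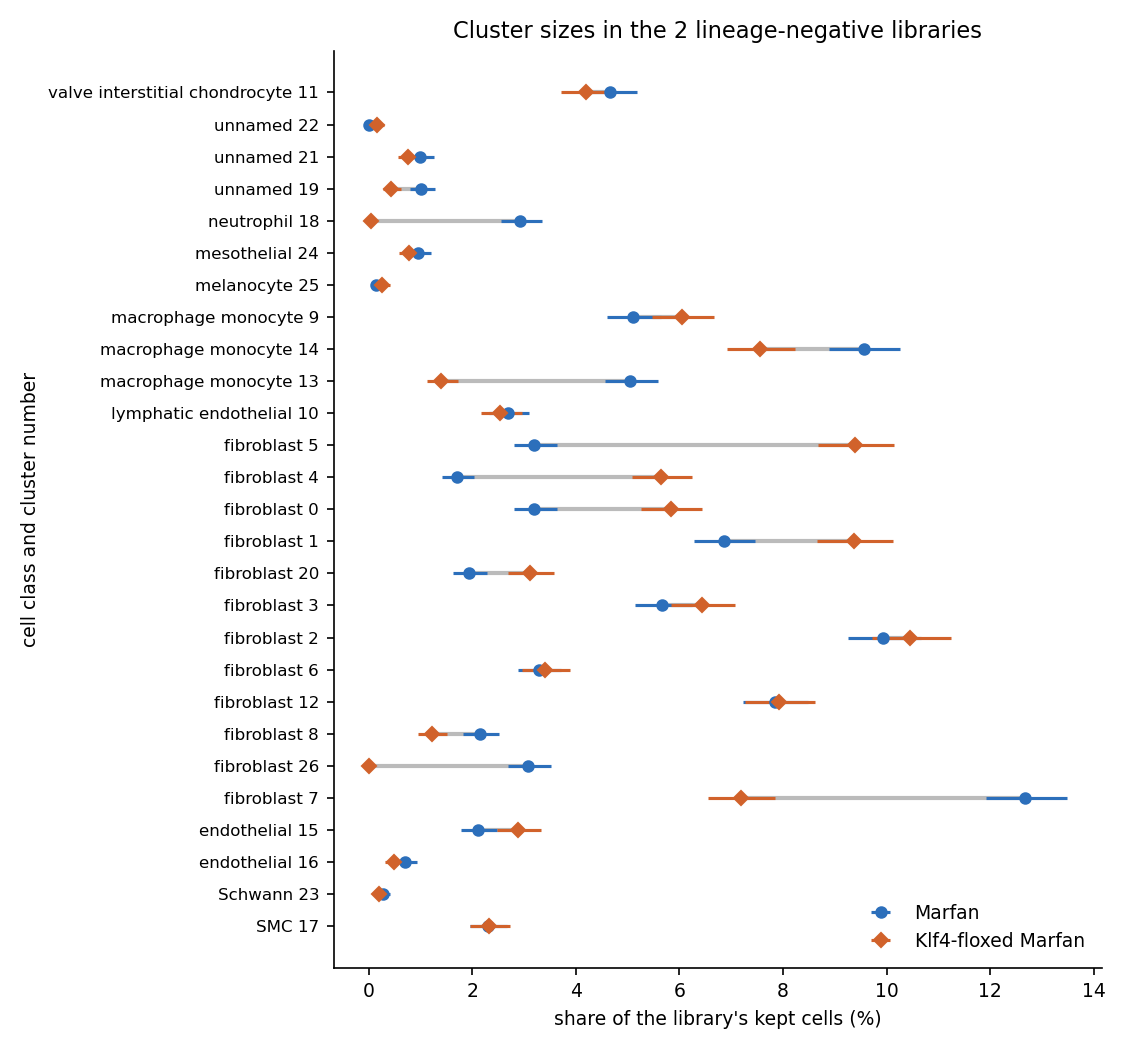
Share of each library's kept cells (horizontal axis, %) in every cluster of the 2 compared libraries, named by class and cluster number; circles are Marfan, diamonds labelled Klf4-floxed Marfan, coloured bars exact 95% counting intervals, and grey lines join the pair. Fibroblast cluster 26 and neutrophil cluster 18 are nearly absent from the library labelled floxed (0 and 3 cells), while fibroblast clusters 4 and 5 are larger there.

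Genes with the lowest ratios over the whole library traced to these small populations. Il11, a cytokine of the interleukin-6 family, was 1.44 CPM in the control, 214 CPM in Marfan and 1.59 CPM in the library labelled floxed (log2 -7.07), and cluster 26 held 97.9% of its UMIs. Cxcl5, a neutrophil-attracting chemokine, was 4.04, 193 and 2.55 CPM, with 97.8% of its UMIs there. Il6 was 6.94, 279 and 15.4 CPM (log2 -4.18), with 93.8% there, and without the cluster Marfan stood at 18.7 CPM (log2 -0.28). The low value of Il6 in the library labelled floxed thus came close to that of the other Marfan cells.

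Neutrophil and monocyte transcripts were also among the lowest. S100a8 and S100a9, the calcium-binding alarmins of neutrophils, were 45.8 and 52.3 CPM in the control, 202 and 278 CPM in Marfan, and 10.6 and 15.03 CPM in the library labelled floxed, with 95.4% and 96.2% of their UMIs in the neutrophil cluster. Ly6c2, which marks classical monocytes, was 0.344, 44.6 and 2.31 CPM (log2 -4.27), with 84.7% in cluster 13. Slfn4, Ccl11, Hp, Lif, Cxcl14 and Chl1 completed the 12 lowest, at log2 ratios from -6.38 to -3.28. For Ccl11, Hp, Lif, Cxcl14 and Chl1 most UMIs of the Marfan library lay in cluster 26 (63.3% to 91.8%). Outside neutrophils, S100a9 also had a UMI in 7.78% of Marfan and 0.776% of labelled floxed fibroblasts, at 7.94 and 0.740 CPM; the part of free RNA in this was not tested.

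The highest genes were of smaller ratio and mostly fibroblast transcripts. Jchain, the joining chain of secreted immunoglobulin, led at 0.0860 CPM in the control, 22.7 CPM in Marfan and 127 CPM in the library labelled floxed (log2 2.48). Its UMIs lay mostly in cluster 13 (83.0%) and in few cells: 11 labelled floxed cells with at least 10 UMIs held 93.1% of 8756 Jchain UMIs, and without such cells the level was 6.23 CPM in Marfan and 8.73 CPM in the library labelled floxed. Rgs5, a regulator of G protein signalling in mural cells, was 139, 72.1 and 156 CPM, and 22.9% of its UMIs lay in cluster 22, a Chga and Chgb cluster with 0 Marfan and 10 labelled floxed cells. Gem, a small GTPase, was 128, 93.6 and 196 CPM, and Tnnt2, cardiac troponin T, 96.8, 84.2 and 167 CPM. The set also held the clock output factor Dbp, the nuclear receptor Nr4a2, and Opcml, Rtn1, Prss35 and Id4.

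Inflammatory ligands as a group were lower over the whole library. Of 24 chemokine ligands, 14 were past the fold lower and 1, Ccl24, higher, with a median log2 ratio of -1.07 against 0.02 over all genes. Without cluster 26, 9 of 23 measured were lower and 1 higher (median -0.40), in a comparison where 121 genes (1.14%) were past the fold higher and 369 (3.48%) lower. Of 21 cytokines and NF-kB targets, 8 were lower and 0 higher with the cluster, and 2 of 18 lower without it. Monocyte genes numbered 8 lower and 2 higher of 12 measured (median -1.92), and neutrophil genes 10 lower of 11. Among the 7 measured genes of MHC class II presentation 5 were lower, with Cd74 at 1826, 3381 and 2169 CPM.

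Structural genes moved little over the whole library. Of 23 collagens and fibrillar matrix genes, Vcan (464, 377 and 598 CPM) and Postn (500, 451 and 790 CPM), a proteoglycan and a matricellular protein, were past the fold higher, and Tnc (4.54, 29.2 and 8.68 CPM) lower. Without cluster 26 Tnc was 11.9 CPM in Marfan and not past the fold. Col1a1, the main chain of type I collagen, was 929 CPM in Marfan and 932 CPM in the library labelled floxed. None of the 10 small proteoglycans, 24 genes of TGF-beta signalling or 19 endothelial identity genes passed the fold in either direction. Of 19 elastic fibre genes, Lox, the lysyl oxidase that crosslinks elastin (77.4 and 41.3 CPM), and Emilin2 were lower; without cluster 26 Lox was 50.2 CPM in Marfan and not past the fold. Elastin itself, Eln, was 157 and 189 CPM.

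**Figure D3:**
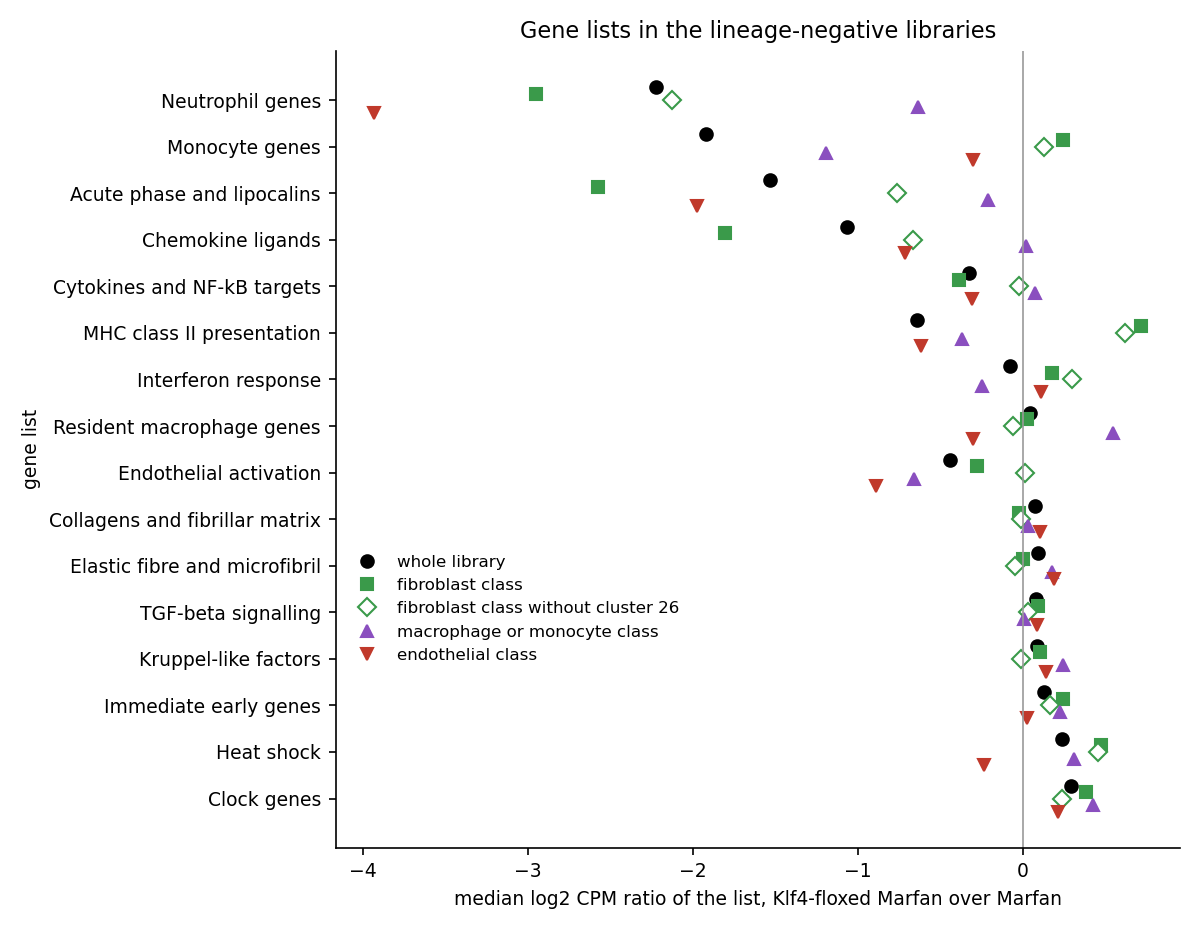
Median log2 CPM ratio (horizontal axis, labelled Klf4-floxed Marfan over Marfan) of the measured genes of 16 lists, in the whole library, in fibroblasts with and without cluster 26, in macrophages or monocytes and in endothelial cells; each point is 1 list in 1 cell set and the vertical line marks no difference. Chemokine ligands reach -1.07 in the whole library and -1.81 in fibroblasts, and MHC class II genes lie on opposite sides in fibroblasts (0.72) and in the whole library, macrophages and endothelial cells.

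In fibroblasts, chemokine and cytokine genes were among the lower, and some MHC class II and immediate early genes among the higher. Of 10057 genes, 188 (1.87%) were past the fold higher in the library labelled floxed and 247 (2.46%) lower. Without cluster 26, 115 of 10054 genes (1.14%) were higher and 122 (1.21%) lower. With each fibroblast cluster given the same weight in both libraries, 32 of 10045 genes (0.319%) were higher and 65 (0.647%) lower.

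Ccl2, the main monocyte-attracting chemokine, was 74.1 CPM in control, 1078 CPM in Marfan and 45.9 CPM in labelled floxed fibroblasts. Without cluster 26 the Marfan level was 137 CPM (log2 -1.58), and Ccl2 was lower in 9 of the 11 other fibroblast clusters. The widest gap among them was cluster 4, at 2088 and 75.2 CPM; clusters 5 (46.1 and 80.6 CPM) and 8 (50.8 and 136 CPM) ran the other way. The related monocyte chemokine Ccl7 was 24.3, 837 and 21.9 CPM, and 55.1 CPM in Marfan without cluster 26. Cxcl1, a neutrophil chemokine, was 70.4, 656 and 112 CPM, and here the sign turned without the cluster, at 91.8 CPM in Marfan.

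Over the list, 16 of 22 chemokine ligands measured in fibroblasts were lower and 1 higher, and 12 of 21 were lower without cluster 26 (median -0.67). Cxcl10, induced by interferon, was 411, 360 and 95.04 CPM, and without the cluster 209 CPM in Marfan. In cluster 4 it was 6054, 5777 and 741 CPM. The interferon-response genes as a list had 5 of 31 higher and 2 lower in fibroblasts without cluster 26.

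Timp1, the tissue inhibitor of metalloproteinases 1 (chrX:20870166-20874735, plus strand, GRCm38), was lower in every fibroblast cluster. It was 281 CPM in control, 2679 CPM in Marfan and 391 CPM in labelled floxed fibroblasts. Cluster 26 alone stood at 19490 CPM, and without it Marfan was 537 CPM (log2 -0.46). In the 11 shared clusters the log2 ratio ran from -1.33 in cluster 8 (483 and 192 CPM) to -0.20 in cluster 0 (476 and 413 CPM). Mt2, a metallothionein that binds zinc, followed it, at 190, 856 and 114 CPM, 281 CPM in Marfan without cluster 26, and lower in 11 of 11 clusters.

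Spp1, osteopontin (chr5:104435118-104441050, plus strand), was 33.2, 2298 and 226 CPM in fibroblasts, and 334 CPM in Marfan without cluster 26 (log2 -0.57). It was lower past the fold in 9 of 11 clusters, for example 79.5 and 7.15 CPM in cluster 6. Its highest levels were in clusters 1 and 20, at 1590 and 838 CPM and at 1694 and 1852 CPM. Over the whole Marfan library 552 cells with at least 10 Spp1 UMIs held 97.2% of them, while 2908 cells had a UMI. The part of free RNA in the low levels was not tested. Hp, the haemoglobin-binding haptoglobin, was 1.55, 183 and 9.16 CPM, and 43.9 CPM in Marfan without the cluster. Lcn2, Saa3, Hp and Ptx3 were the 4 of 5 acute phase genes that were lower, whereas without cluster 26 Lcn2, Saa3 and Hp were lower and Ptx3 was past the fold higher (73.5 to 124 CPM). Of 20 metalloproteinase and inhibitor genes 7 were lower (Mmp3, Mmp13, Adamts1, Adamts4, Adamts5, Timp1 and Ctss), against 1 of 19 without cluster 26.

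**Figure D4:**
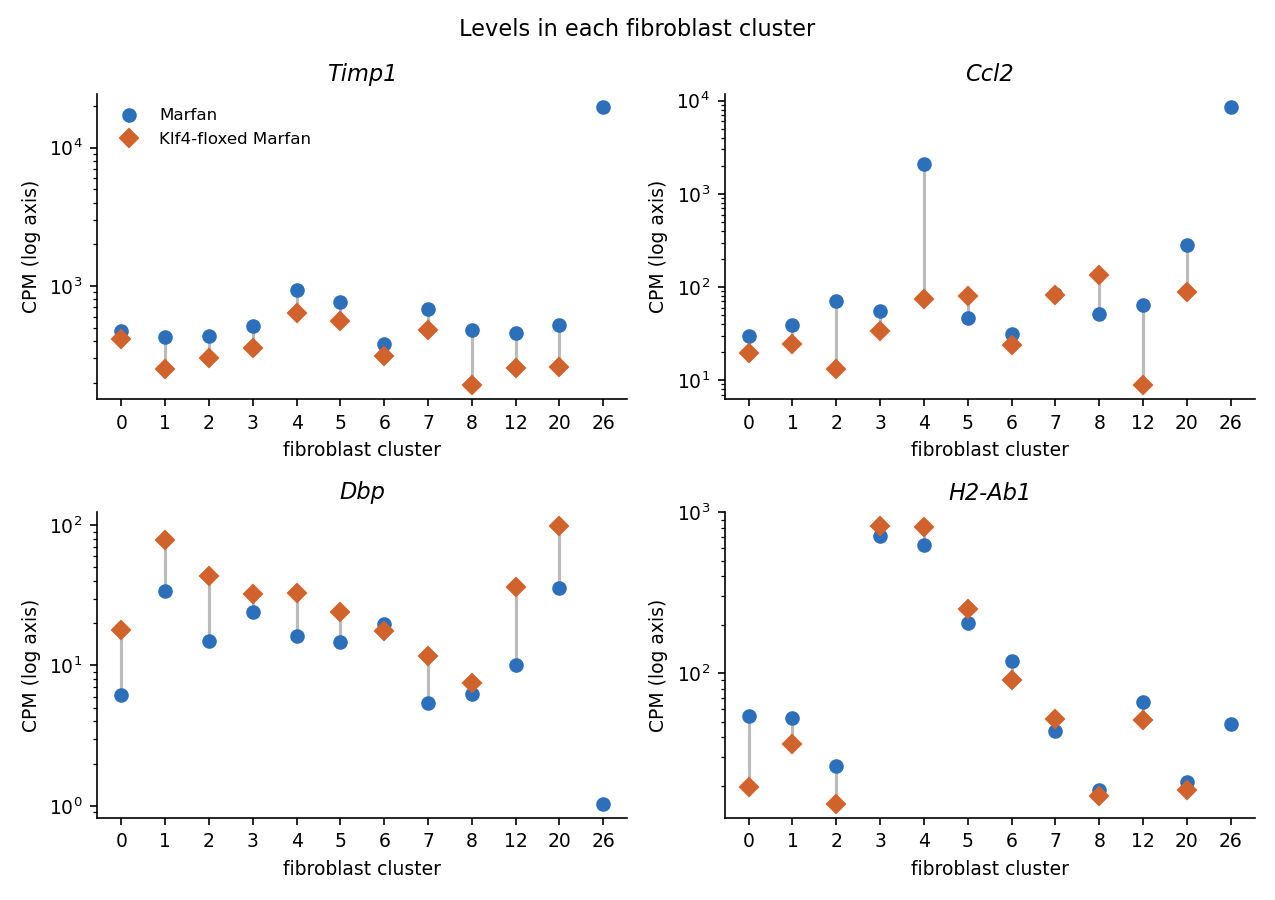
Level (vertical axes, CPM, log scale) of Timp1, Ccl2, Dbp and H2-Ab1 in each fibroblast cluster (horizontal axes), circles for Marfan and diamonds for labelled Klf4-floxed Marfan, with a grey line joining the pair; cluster 26 has a Marfan point only. Timp1 is lower in 11 of 11 shared clusters, Dbp higher in 10, Ccl2 lower in 9 and H2-Ab1 higher in 4.

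Among genes higher in fibroblasts, Rnf19b, an E3 ubiquitin ligase, was past the fold in all 11 shared clusters. It was 10.4 CPM in control, 8.48 CPM in Marfan and 25.1 CPM in labelled floxed fibroblasts (log2 1.56), and its log2 ratio lay between 0.83 and 2.28 in the clusters. Nr4a2, an orphan nuclear receptor, was 67.8, 68.1 and 161 CPM, and its ratio ran from -0.13 in cluster 0 to 2.45 in cluster 4.

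Immediate early and heat shock genes were partly higher in fibroblasts. Fosb, Atf3, Nr4a1 and Nr4a2 were the 4 of 19 immediate early genes past the fold, while Fos (1304 and 1459 CPM) and Jun (824 and 975 CPM) were not. Of 12 heat shock genes 5 were higher, with and without cluster 26, and 0 lower. Hspa1a, the inducible HSP70, was 1223 CPM in control, 1128 CPM in Marfan and 2138 CPM in labelled floxed fibroblasts, and higher in 10 of 11 clusters. Hspa1a and its near-identical copy Hspa1b can share reads and are uncertain as single genes. The other fibroblast genes of highest ratio were Bdnf, Rtn1, Opcml and Csrnp1, and Bdnf (15.3 and 33.8 CPM) was higher in 4 of 11 clusters.

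Genes of MHC class II presentation ran in opposite directions in fibroblasts and in the whole library. In fibroblasts 5 of 6 measured were past the fold higher (median 0.72), and 4 of 6 without cluster 26. H2-Ab1 was 172 CPM in control, 135 CPM in Marfan and 226 CPM in labelled floxed fibroblasts. Within clusters it was higher in 4 and lower in 7 of 11, and the clusters with most of it, 3 and 4, went from 711 to 822 and from 622 to 815 CPM. Macrophage markers summed to 160 CPM in Marfan and 119 CPM in labelled floxed fibroblasts, and the part of other cells in the class II ratios was not tested.

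Fibroblast matrix genes were near level as a list, at a median log2 ratio of -0.03 over 23 collagens and fibrillar matrix genes. Of these Postn was past the fold higher and Fn1 and Tnc lower. Of 19 elastic fibre genes Emilin2 and Lox were lower. Col3a1 was 1434, 2015 and 1416 CPM, and 1631 CPM in Marfan without cluster 26. Dcn was higher in 9 of 11 clusters but past the fold in 0, and without cluster 26 its log2 ratio in fibroblasts was 0.11. Lox was 46.4, 99.5 and 43.5 CPM, and 58.4 CPM in Marfan without cluster 26, not past the fold. Il33, a nuclear alarmin of stromal cells, was 184, 361 and 129 CPM, and 193 CPM in Marfan without the cluster.

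Macrophages and monocytes of the library labelled floxed had less of the monocyte programme. Of 9376 genes 435 (4.64%) were past the fold higher and 304 (3.24%) lower, and with the 3 clusters weighted alike 281 of 9368 (3%) were higher and 256 (2.73%) lower. Cluster 14 was the largest of the class in both libraries, but cluster 13 made up 359 of 1401 Marfan and 88 of 940 labelled floxed cells, and levels in the class carry that mix. Markers of other immune cells were also counted in the class. In Marfan and the library labelled floxed, T and NK cell markers summed to 73.5 and 45.0 CPM and dendritic cell markers to 65.8 and 47.6 CPM. B cell markers summed to 18.3 and 43.5 CPM and mast cell markers to 110 and 233 CPM. The part of such cells in the class ratios was not tested. Of 13 monocyte genes 9 were lower and 0 higher (median -1.19), while without cluster 13, 2 of 10 were lower and 1 higher. Over all genes of the class without cluster 13, 315 of 9330 (3.38%) were past the fold higher and 225 (2.41%) lower.

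Ly6c2 was 1.85 CPM in control, 209 CPM in Marfan and 14.7 CPM in labelled floxed macrophages and monocytes. Ccr2, the receptor for Ccl2, was 96.2, 178 and 59.3 CPM, and Plac8 29.3, 365 and 60.3 CPM. The other genes of lowest ratio were Ifitm1, Slfn4, Vegfa, Trem1, Sirpb1c and Ltb4r1, from -4.91 to -2.55 on the log2 scale. Vegfa, the angiogenic growth factor, was 6.98, 41.6 and 6.36 CPM, and it was 1 of 7 lower among 14 measured genes of glycolysis and hypoxia, with Slc2a1, Hk2, Pgk1, Pgam1, Eno1 and Pkm. Without cluster 13, 0 of 13 were lower.

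Resident macrophage genes were higher in the class but not within its resident-like cluster. Pf4 (1414 to 2350 CPM), Igf1 (187 to 312 CPM), Vsig4 (43.8 to 77.4 CPM) and Stab1 (153 to 273 CPM) were the 4 of 14 past the fold, and the list's median was 0.54. With clusters weighted alike the median was -0.01, and in cluster 9 Folr2, a folate receptor, was 983 CPM in Marfan and 951 CPM in the library labelled floxed. Ccl24, an eosinophil-attracting chemokine, differed within that cluster, at 340 CPM in control, 148 CPM in Marfan and 312 CPM in the library labelled floxed. Over the class it was 205, 42.7 and 130 CPM (log2 1.61), the highest ratio among the 21 chemokine ligands measured there.

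Chemokines were split in macrophages, with 6 of 21 higher and 6 lower. Cxcl9, which attracts T cells and is induced by interferon-gamma, was 71.8, 470 and 92.2 CPM, and in cluster 14 223, 834 and 89.1 CPM. Cxcl2, which attracts neutrophils, was 4345, 3175 and 4846 CPM, and Ccl3 and Ccl4 were also higher. Without cluster 13, 2 of 20 were higher (Ccl24 and Cxcl1) and 5 lower, and Cxcl2, Ccl3 and Ccl4 were not past the fold. Il1a, an interleukin-1 cytokine, was 59.7, 23.6 and 59.6 CPM, higher in clusters 9 (9.33 to 47.2 CPM) and 14 (30.02 to 78.8 CPM), whereas Il1b was level at 1478 and 1459 CPM.

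Spp1 in the class was 118 CPM in the library labelled floxed and 552 CPM in Marfan, and cluster 13 carried the gap (1808 and 183 CPM against 141 and 149 CPM in cluster 14). Interferon-response genes had 4 of 31 lower and 0 higher in the class, and 0 of 31 past the fold when cluster 13 was left out. MHC class II genes had 0 of 8 past the fold, at a median of -0.37. Other high-ratio genes of the class were Slc15a2, Clu, Siglech, Bmp2, Ankrd33b and Gem. For Clu, Bmp2 and Gem most UMIs of the library labelled floxed lay in fibroblasts (82.0%, 67.7% and 92.7%). Fibroblast markers summed to 1939 CPM in Marfan and 2405 CPM in labelled floxed macrophages, and their part in these ratios was not tested.

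Endothelial cells were few, 200 in Marfan and 210 in the library labelled floxed, and their levels the least precise. Of 10453 genes 1229 (11.8%) were past the fold higher and 821 (7.85%) lower, but the counting interval lay wholly past the fold for 114 (1.09%) higher and 115 (1.1%) lower. Genes of endothelial activation were lower: 6 of 11 measured, with 1 higher and a median of -0.89.

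Sele, E-selectin, which slows leukocytes on the vessel wall, was 85.5 CPM in control, 211 CPM in Marfan and 66.5 CPM in labelled floxed endothelium (log2 -1.66, -1.98 to -1.36). In both libraries about the same share of cells had a Sele UMI, 11.5% in Marfan and 10.00% in the library labelled floxed. Over the whole Marfan library 51.8% of Sele UMIs lay in fibroblast cluster 26, at 138 CPM there. Selp, P-selectin, was 63.1, 245 and 101 CPM, Edn1, the vasoconstrictor endothelin-1, 67.3, 411 and 149 CPM, and Lrg1, a secreted glycoprotein, 184, 367 and 154 CPM. Icam1 (173 and 93.4 CPM) and Ackr1 were also lower, and Esm1 was higher at 5.65 and 22.2 CPM. Vcam1, another leukocyte adhesion molecule, was not lower, at 734, 824 and 1169 CPM.

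In cluster 15, the larger endothelial cluster (150 and 180 cells), Sele was 231 CPM in Marfan and 59.2 CPM in the library labelled floxed. Cluster 16, with 50 and 30 cells of capillary type by Gpihbp1 and Cd36, had 133 and 115 CPM. Macrophage markers summed to 360 CPM in Marfan and 151 CPM in labelled floxed endothelium and neutrophil markers to 90.3 and 2.92 CPM, with 5 of the 6 neutrophil markers at 0 in the latter. Ctss, Lgals3, Bst1, Spp1 and Ppp1r14a, among the lowest genes of the class, had most of their UMIs in macrophages, fibroblasts or smooth muscle, and the part of these other cells was not tested.

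Further lower genes with endothelial expression were Gdf6, a growth factor of the BMP family, at 1.07, 58.7 and 3.50 CPM, and Tmem252 at 4.27, 72.8 and 15.8 CPM. Wnt9b, a Wnt ligand of valve endothelium, was 189, 26.5 and 120 CPM, with 84.4% of its UMIs in cluster 15. The remaining genes of highest ratio, Thbs2, Fst, Epha7, Sema5a, Pgf, Tmem108 and Gsta4, had more UMIs in fibroblasts than in endothelium. Fibroblast markers summed to 4001 CPM in Marfan and 6166 CPM in labelled floxed endothelial cells, and their part was not tested. Of 12 cholesterol synthesis genes, Sqle, Fdps, Fdft1 and Insig1 were higher and 0 lower. Identity genes were steady, with 1 of 21, Fabp4, past the fold.

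Several circadian clock genes were higher in all 3 classes. The clock is a loop in which Clock and Arntl activate Per, Cry, Nr1d1, Nr1d2 and the output factors Dbp and Tef, whose transcripts cycle over the day; the labels used here do not state the time of day of collection. Of 16 measured over the whole library 5 were past the fold higher and 0 lower (median 0.29, against 0.02 over all genes). Dbp, a D-box binding activator (chr7:45705088-45710203, plus strand), was 28.5 CPM in control, 13.5 CPM in Marfan and 35.3 CPM in the library labelled floxed (log2 1.39, with an interval of 1.286 to 1.496). Nr1d1, the heme receptor REV-ERB-alpha, was 33.5, 18.1 and 34.9 CPM, and its paralog Nr1d2 38.6, 20.9 and 39.1 CPM. In these 3 genes the labelled floxed and control libraries lay close together, above Marfan.

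Per3, a period gene, was 6.80 CPM in Marfan and 12.05 CPM in the library labelled floxed, and Tef 12.3 and 19.3 CPM. Cry1, a repressor of the loop, ran the other way at 12.6 and 8.94 CPM, short of the fold (log2 -0.50, and -0.64 in fibroblasts, past it). The core activators Arntl and Clock had log2 ratios of -0.01 and 0.06. Within fibroblasts Nr1d1, Nr1d2 and Per3 were higher in 11 of 11 shared clusters and Dbp in 10.

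Dbp, Nr1d1 and Nr1d2 were also higher outside fibroblasts. In macrophages Dbp, Nr1d1 and Nr1d2 had log2 ratios of 0.71, 1.26 and 0.76, and in endothelial cells 1.59, 1.10 and 0.95. Per3 did not reach 5 CPM in macrophages, and its endothelial interval ran from -0.16 to 2.56. In the lineage-positive libraries, where 34 of 9333 genes (0.364%) were past the fold higher and 58 (0.621%) lower, Dbp was 26.5 CPM in Marfan and 48.5 CPM in the library labelled floxed (log2 0.87), Per3 had a log2 ratio of 0.64, Nr1d2 of 0.48 and Nr1d1 of 0.27. The lineage-positive libraries differed in depth, at medians of 2101.5 UMIs per cell in Marfan and 13033 in the library labelled floxed, and the part of depth was not tested. Per the protocol in the labels, lineage-positive and lineage-negative cells were sorted from the same pooled suspensions, so these pairs are not independent.

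**Figure D5:**
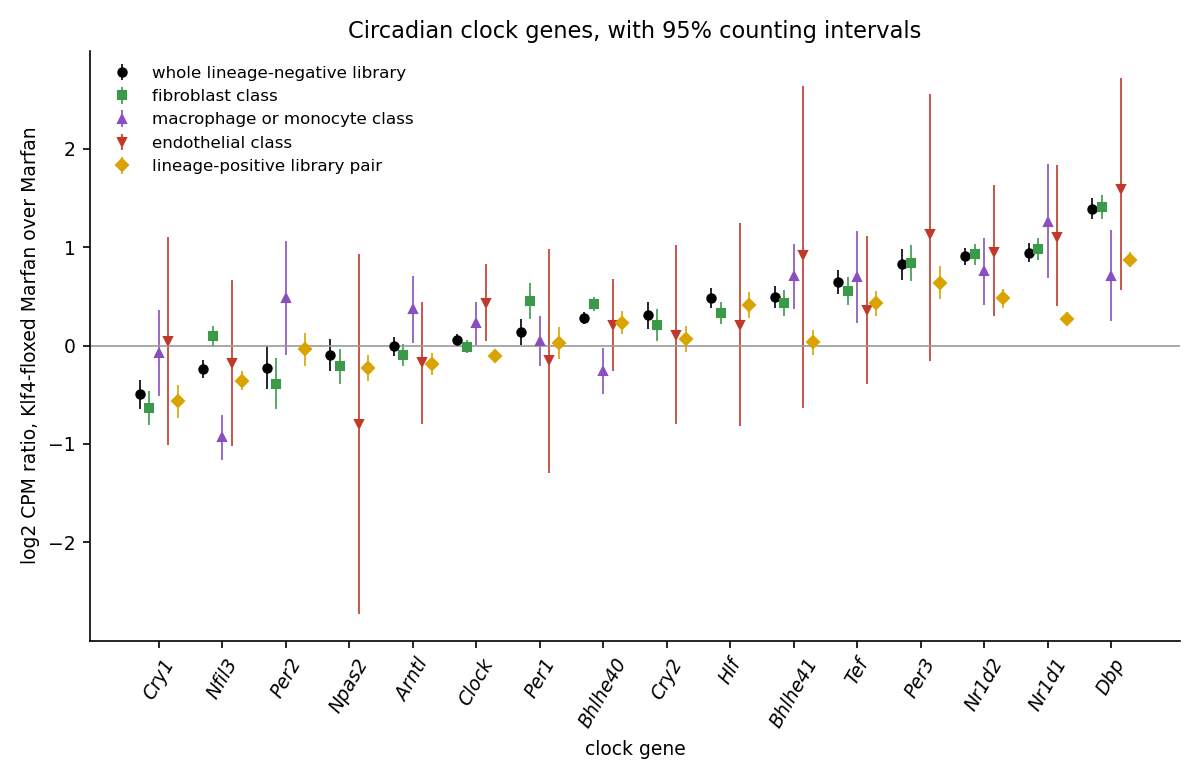
Log2 CPM ratio (vertical axis, labelled Klf4-floxed Marfan over Marfan) of 16 clock genes (horizontal axis, 1 per position) in the whole lineage-negative library, fibroblasts, macrophages or monocytes, endothelial cells and the lineage-positive pair; bars are exact 95% counting intervals. Dbp, Nr1d1 and Nr1d2 are above 0 in each set, Dbp at 1.39 in the whole library, and Cry1 lies at -0.50 there.

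The promoters of the 4 clock genes of highest ratio are shown because these genes had ratios of one sign over the whole library and in fibroblasts. Each window runs from 250 bases before to 50 after a gene's start in RefSeq (GRCm38.p6), on the gene's strand: Dbp chr7:45704997-45705296 (plus), Nr1d1 chr11:98775328-98775627 (minus), Nr1d2 chr14:18239057-18239356 (minus) and Per3 chr4:151044616-151044915 (minus). Capitals mark a D-box (TTANGTAA) or the element AGGTCA that ROR and REV-ERB receptors bind.
Dbp: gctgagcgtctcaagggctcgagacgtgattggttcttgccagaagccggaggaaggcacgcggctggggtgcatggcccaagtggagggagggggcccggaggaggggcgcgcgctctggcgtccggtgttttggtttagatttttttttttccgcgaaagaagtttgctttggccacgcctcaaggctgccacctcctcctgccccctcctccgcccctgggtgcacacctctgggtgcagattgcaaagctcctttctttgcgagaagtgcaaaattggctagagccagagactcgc
Nr1d1: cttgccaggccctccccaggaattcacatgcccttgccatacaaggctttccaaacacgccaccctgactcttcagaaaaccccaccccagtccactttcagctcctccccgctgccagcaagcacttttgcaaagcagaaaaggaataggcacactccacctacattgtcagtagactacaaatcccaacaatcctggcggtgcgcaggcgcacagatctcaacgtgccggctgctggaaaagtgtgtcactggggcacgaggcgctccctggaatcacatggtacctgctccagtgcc
Nr1d2: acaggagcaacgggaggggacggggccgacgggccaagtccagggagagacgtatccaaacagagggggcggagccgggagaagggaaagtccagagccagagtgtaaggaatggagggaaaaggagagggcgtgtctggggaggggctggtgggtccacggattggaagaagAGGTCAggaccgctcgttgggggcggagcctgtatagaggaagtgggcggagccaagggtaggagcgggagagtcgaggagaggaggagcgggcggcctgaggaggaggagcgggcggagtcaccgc
Per3: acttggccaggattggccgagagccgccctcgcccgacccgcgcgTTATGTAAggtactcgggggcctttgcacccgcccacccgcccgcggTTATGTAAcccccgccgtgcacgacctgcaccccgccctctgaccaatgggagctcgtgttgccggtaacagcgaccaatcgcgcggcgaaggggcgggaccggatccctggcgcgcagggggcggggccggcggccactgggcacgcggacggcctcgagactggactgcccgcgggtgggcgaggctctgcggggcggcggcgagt
The Per3 window held a D-box at 205 and at 158 bases before the start, and the Nr1d2 window an AGGTCA element at 77 bases. The Dbp and Nr1d1 windows held neither of these nor the E-box CACGTG on either strand, which says only that these letters are not in the windows. Both windows of Tef, chr15:81802423-81802722 and chr15:81811164-81811463, held an E-box, 127 and 138 bases before the start. Of all 32851 promoter windows, 7.15% held the E-box, 16.3% the element and 2.32% the D-box, and of the 18 listed clock genes 15 had a window, 5 of them with an E-box, 5 with a element and 1 with a D-box.

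Few genes were past the fold the same way in the whole library and in all 3 classes. Of 8331 genes measured in all 4 sets, 20 (0.240%) were higher and 26 (0.312%) lower; the sets share cells, so this count is a description. S100a9, S100a8, Cxcl9, Spp1, Hp, Plac8, Ifi205, Il6 and Lrg1 led the lower group by their smallest ratio. In Marfan 96.2% of S100a9 and 95.4% of S100a8 UMIs lay in the neutrophil cluster, and 98.5% of Il6 UMIs in fibroblasts. The part of free RNA from those cells in the ratios of the other classes was not tested. Tnnt2, Nr1d1, Prss35, Limch1 and Nr1d2 were among those that led the higher group. In the lineage-positive pair 27 of the 46 could be measured and 5 were past the fold in the same direction. Spp1, for example, was 232 CPM in Marfan and 124 CPM in the library labelled floxed there.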

How the data were processed

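Droplet single-cell RNA counts of 6 aortic root libraries were used as deposited by the authors. The values are whole UMI counts per gene and barcode, made with Cell Ranger 6.1.2 per the file headers, on mm10 per the submitters' processing notes. The 55402 features include the tdTomato reporter. Barcodes were kept at 1000 or more UMIs, 500 or more genes and at most 10% mitochondrial UMIs. Counts were summed per library or class and scaled to CPM. The share of a gene's UMIs in a cluster or class was taken within the library where the gene was higher. Ratios have exact conditional binomial intervals, levels exact Poisson and shares Clopper-Pearson intervals, all at 95%. Each group is 1 library of 4 pooled animals, so no test was run. The ratio script was tested on simulated data.

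The 3 lineage-negative libraries were clustered together (2000 variable genes, 30 principal components, 15 neighbours, Leiden resolution 1) with scanpy 1.11.5 and leidenalg 0.10.2 in Python 3.11.15, with numpy 2.4.6 and scipy 1.17.1. A cluster was named from 19 marker sets, by the best matching set, with at least 3 markers in at least 10% of its cells and no other set leading its top 10 genes; details of how the last condition was applied were settled after seeing the data. Possible doublets were kept in the main values; as an alternative, Scrublet calls (70 in Marfan) or, where it called under 0.5%, the top scores (314 labelled floxed, 163 control) were removed. Genes named in the text are the 12 highest and 12 lowest ratios over the whole library and the 8 of each per class, among genes of 20 CPM or more that were detected in 5% or more of cells (10% within a class) in the higher library, together with members of 35 gene lists; some genes that met the rule are not reported here. Members and lists were chosen with earlier results of these data known. Values without cluster 26, without cluster 13 and with equal cluster mix, without the most haemoglobin-rich cell and without Jchain-rich cells were added after seeing the data. Gene positions are from GENCODE and promoters from RefSeq.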

Additional observations from a re-analysis of the deposited data

Results flagged for a closer look

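The genes here were past the fold in opposite directions in different cell classes of the same pair of libraries. With 1 library per group the difference between classes was not tested. Ratios are log2 of the library labelled floxed over Marfan.

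Genes of MHC class II presentation were higher in fibroblasts taken as a class and lower in endothelial cells. Cd74, the invariant chain, had a ratio of 0.75 in fibroblasts (196 to 329 CPM) and -1.07 in endothelial cells (345 to 164 CPM). H2-Ab1 had 0.75 and -0.62, and H2-Eb1 0.72 and -0.61. Within the 11 shared fibroblast clusters Cd74 was higher in 5 and lower in 6, and H2-Ab1 higher in 4 and lower in 7. The median ratio over these clusters was -0.05 for Cd74 and -0.15 for H2-Ab1, against 0.75 for each over the class. Macrophage markers in endothelial cells summed to 360 CPM in Marfan and 151 CPM in the library labelled floxed, and their part was not tested.

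Cxcl1 and Cxcl2, which attract neutrophils, were lower in fibroblasts and higher in macrophages, whereas Cxcl3 was past the fold lower in both. Cxcl1 was at -2.55 in fibroblasts (656 to 112 CPM) and 0.97 in macrophages (133 to 262 CPM). Cxcl2 was at -2.15 in fibroblasts, 0.61 in macrophages (3175 to 4846 CPM) and -1.37 in endothelial cells. Without cluster 26 the fibroblast values were 0.29 for Cxcl1 and 0.15 for Cxcl2, neither past the fold. Without cluster 13 the macrophage values were 0.74 for Cxcl1 and 0.46 for Cxcl2, the latter not past the fold.

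Interferon-response genes also differed. Ifi27l2a was at -0.59 in macrophages and 0.59 in endothelial cells, and Isg15 at -0.72 and 0.60. Rsad2 was at 0.64 in fibroblasts and -1.11 in endothelial cells. It was a leading gene of fibroblast cluster 4 (121 Marfan and 353 labelled floxed cells), and its fibroblast value carries that mix. Without cluster 13 the macrophage values were -0.36 for Ifi27l2a and -0.05 for Isg15, neither past the fold. Inhba, an activin subunit, was at -0.59 in fibroblasts (0.65 without cluster 26) and 1.37 in endothelial cells. Thbs1, thrombospondin 1, was at 0.59 in fibroblasts (462 to 698 CPM), -2.04 in macrophages (254 to 61.7 CPM) and -1.12 in endothelial cells. For Thbs1 the macrophage direction turned to 0.68 without cluster 13 (35.8 to 57.5 CPM), and the fibroblast value without cluster 26 was not past the fold (469 to 698 CPM).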

How the results depend on the processing

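No paired analysis was possible because each group was 1 library. The 72 gene ratios counted here were the highest and lowest of each cell set, so they were picked for their size. Under all alternatives 461 of 633 of their values stayed within their counting interval, 172 moved outside it and 0 changed sign. Genes named only as list members were not counted, and some changed sign, such as Cxcl1 and Inhba in fibroblasts without cluster 26. List medians were judged by a fixed log2 distance instead of an interval, and 47 of 402 values of 46 medians moved further than that. A sign change was counted only for medians not close to 0. It was seen for 1 value, the resident macrophage list in macrophages (-0.008 with equal cluster mix). At a minimum of 20 CPM the counts higher and lower were 75 and 193 over the whole library, 98 and 143 in fibroblasts, 136 and 136 in macrophages, and 467 and 246 in endothelial cells. At 2-fold they were 27 and 170, 23 and 115, 103 and 117, and 431 and 345. With equal class mix 206 genes were lower over the whole library. With each cell counted alike 120 were higher in fibroblasts, without cluster 26 115 were higher and 122 lower there, and with equal cluster mix 32 and 65 in fibroblasts and 281 higher in macrophages. The Tyrobp ratio was -0.749 thinned, -0.833 with cells counted alike, -0.622 without neutrophil clusters, -0.158 with equal class mix and -0.810 without cluster 26. For Pecam1 the ratio was 0.021 thinned and 0.149 with cells alike, and it turned to -0.005 with equal class mix and -0.024 without cluster 26. The Dcn ratio was 0.366 at a mitochondrial limit of 5%, 0.297 thinned, 0.337 by median-of-ratios scaling, 0.352 scaled without mitochondrial, ribosomal and haemoglobin genes, 0.313 with cells alike, 0.351 without neutrophil clusters, 0.241 with equal class mix and 0.277 without cluster 26. In percentage points, the share with Tyrobp differed by -6.969 thinned and -7.203 without neutrophil clusters, and that with Dcn by 6.648 thinned. Causes were not tested. Endothelial counts rest on 200 and 210 cells.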

Other observations

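Erythroid transcripts stood out in the Marfan library through a single cell. The haemoglobin genes and Alas2 summed to 6.43 CPM in the control, 57.3 CPM in Marfan and 5.45 CPM in the library labelled floxed. A Marfan cell of fibroblast cluster 2, with 14011 UMIs in all, held 3842 of 4563 of these UMIs, and without it Marfan was at 9.06 CPM.

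Markers of less frequent cells differed too. T and NK cell markers summed to 2.60 CPM in the control, 14.5 CPM in Marfan and 6.32 CPM in the library labelled floxed. B cell markers were 1.98, 3.90 and 6.78 CPM, mast cell markers 54.6, 24.9 and 36.1 CPM, and cardiomyocyte markers 107, 104 and 178 CPM.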
